A study of Arabidopsis thaliana with 14 samples.

Results

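Roots of wild-type Arabidopsis thaliana grown in pots were compared with roots of the same wild type grown on Petri dishes. The members are the libraries labelled wild type, 5 of the 14 in the series, of which 2 came from pots and 3 from plates. All 5 carry the Col-0 (Columbia) genotype, with no insertion and no transgene in the labels, and each was read as polyA-selected RNA with a stranded kit. The plate samples were 10-day-old roots from agar with Murashige and Skoog salts at reduced strength and 1% sucrose, and their libraries were paired end. The pot samples were 3-week-old roots from a clay granulate (Oil Dri) that received a commercial fertilizer (Wuxal) weekly under 16 h of light and 8 h of dark, and their libraries were single end. The study's methods name another clay substrate for the pots and a shorter growth on the plates than the labels, and the labels were followed here. Age, medium, mineral supply, sucrose and library type differ together between the groups and cannot be told apart in any result that follows. The labels give no hours of light and dark for the plates, so a difference in light regime cannot be told apart from these either. The hour of harvest is not given in the sources used here. No label says that the samples of a group came from separate cultures, so the p-values measure only the spread between these libraries. The other 9 libraries, 3 from tex1-4 roots on plates and 6 from pot-grown roots that carry pho1-7 alone, with tex1-4 or with hpr1-5 (hpr1-6 in the study's text), served as a second look at the same growth conditions. In these mutants, PHO1, the exporter that loads phosphate into the xylem, or a subunit of the THO/TREX complex for mRNA export is disrupted.

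A root takes up water and mineral ions through epidermis and root hairs and passes them across the endodermis, whose Casparian strips and suberin lamellae seal the wall space, into the vascular cylinder. Transporters for nitrate, phosphate, sulfate and iron are made according to supply and demand. Roots also make specialised metabolites, among them flavonols, triterpenes and indole glucosinolates, and most of their cells run a circadian clock in which morning genes repress evening genes and the reverse.

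The depth was 89981926 to 102657446 reads on genes in the plate libraries and 66355137 to 70789425 in the pot libraries, over 33602 annotated genes. Chloroplast, mitochondrial and ribosomal RNA genes took at most 0.032% each. Values are CPM, read counts scaled to library size after TMM normalization of the 5 libraries, changes are log2 of pots over plates ± standard error, and n is 3 plates and 2 pots throughout. A gene was called when the edgeR quasi-likelihood test gave an adjusted p under 0.1 and the change exceeded 2-fold. The standard error was worked back from this test, as the size of the log2 change divided by the square root of the F statistic. Of the 193 genes that the naming rule picked, 38 overlap an annotated gene on the opposite strand, among them TT4, LUX, FKF1 and ADH1, and the strand setting of the counting is not given in the sources used here, so their reads and those of the partner may not be told apart. Libraries of a group differed by more than sampling noise, so none was treated as a library deposited in duplicate. Plates replicate 2 stood apart, with 240 genes over 2-fold away from both other plates, against 1 gene for replicate 1 and 3 genes for replicate 3. The 8 root markers CASP1, SCR, WER, COBL9, GL2, MYB36, PLT1 and SHR were detected in all 5 libraries. The stomatal gene MUTE and the seed storage genes SESA1, SESA2, SESA3, CRA1 and CRC had 0 reads in every library. Other genes from lists of other tissues did have reads. PDF1, of the shoot epidermis list, had 89.0, 59.2 and 75.2 CPM on plates and 61.3 and 54.5 CPM in pots. Photosynthesis genes and the seed storage gene SESA4 also had reads, as given below.

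Of 22225 genes tested, 2296 were called higher in pots (10.3%) and 2333 lower (10.5%), and the median change of all tested genes was 0.0032. Of the called genes, 414 were over 16-fold higher and 211 over 16-fold lower. The groups did not overlap, in either direction, for 36.2% (pots higher) and 35.0% (pots lower) of all tested genes. A fall or rise of a gene in bulk roots can reflect fewer cells of a type or less RNA per cell, and these cannot be told apart. The same contrast in the mutants, pho1-7 tex1-4 in pots against tex1-4 on plates, shares no library with the 5 wild-type samples but differs by the pho1-7 insertion as well. It called 9.75% of 22667 genes higher and 12.6% lower. Of the wild-type calls, 1668 of the higher genes (72.6%) and 1985 of the lower genes (85.1%) had the same call there, and 7 had the opposite one. All 8 pot libraries lay above all 6 plate libraries for 15.7% of genes and below them for 19.7%, and among the called genes this held for 1679 of the higher (73.1%) and 1958 of the lower (83.9%). Gene lists are described by their counts and medians beside these shares, without a test of the list. Where a list had 0 calls in a direction, DESeq2 called 0 as well, and at an unadjusted p under 0.05 and any fold the edgeR test gave 9 xylem wall genes lower, 5 cambium genes higher and at most 3 genes in any other list.

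**Figure D1:**
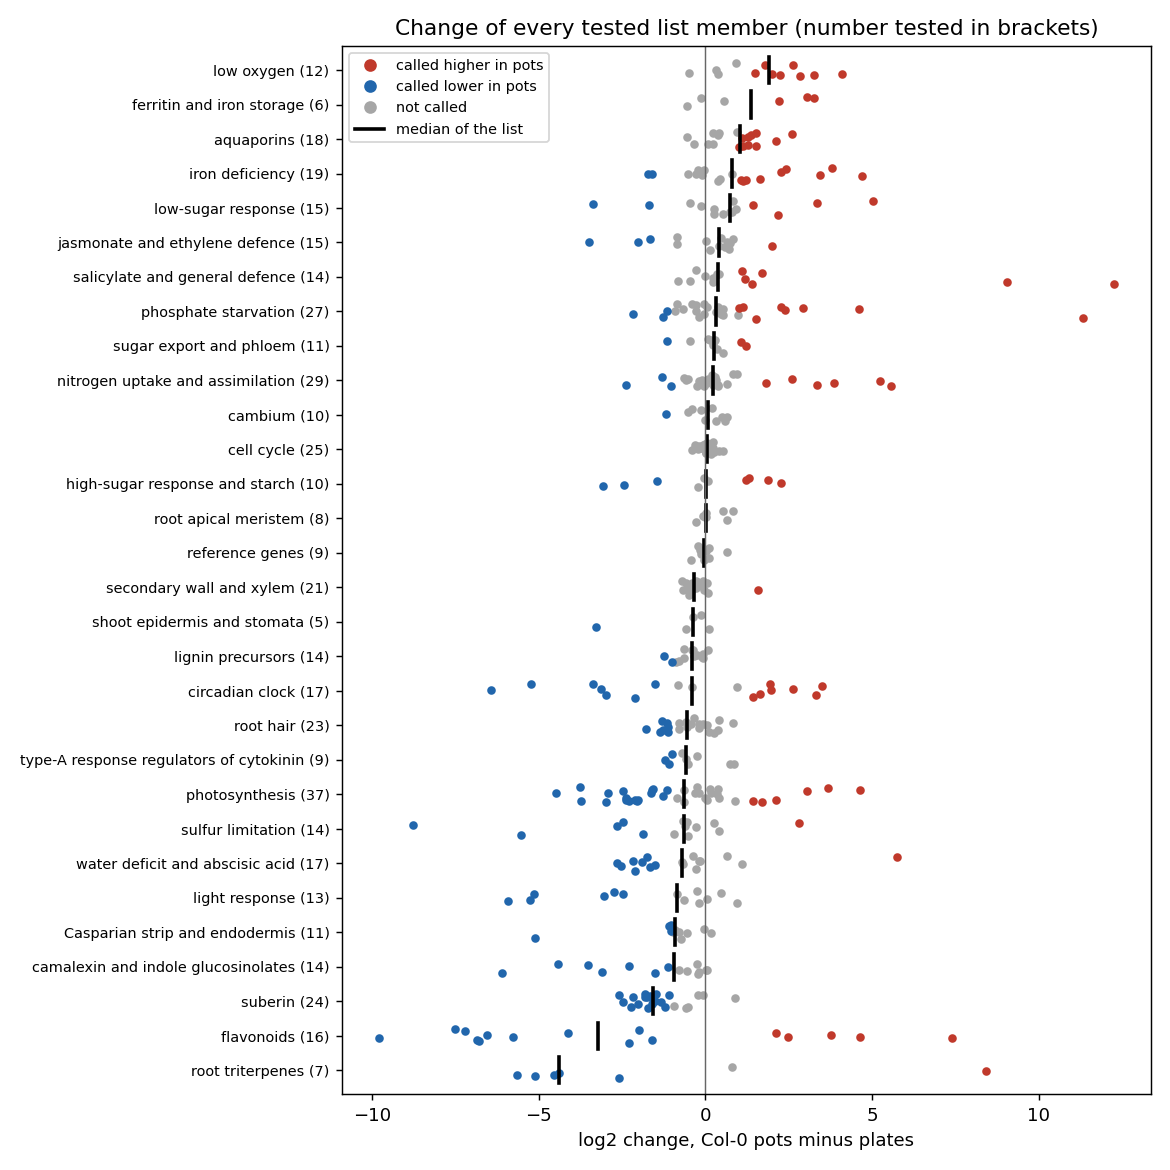
Log2 change (Col-0 pots minus plates, horizontal axis) of each tested member of 30 gene lists, with called genes in colour, other genes in grey and a bar at each list's median. The triterpene, flavonoid and suberin lists have the lowest medians (-4.40, -3.21 and -1.58) and the low oxygen list the highest (1.90).

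Genes of the flavonol branch of the phenylpropanoid pathway were called lower in pot roots. Of 16 flavonoid genes tested, 11 were called lower and 5 higher, with a median of -3.21, and 9 of the falls and 1 of the rises separated the 8 pot from the 6 plate libraries. TT4, the chalcone synthase that opens the pathway (RefSeq TAIR10.1 chr5:4488476-4490264), had 1055, 907 and 999.9 CPM on plates and 0.954 and 1.29 CPM in pots. Every plate library was far above every pot library, and the fall was among the largest of any gene (log2 change -9.79 ± 0.20, adjusted p = 9.1e-06). The chalcone isomerase TT5 had 115, 91.3 and 105 CPM on plates and 0.672 and 0.716 CPM in pots (log2 change -7.22 ± 0.16, adjusted p = 9.1e-06). FLS1, the synthase that makes flavonols, had 275, 237 and 256 CPM on plates and 1.18 and 1.65 CPM in pots (log2 change -7.5 ± 0.19, adjusted p = 1.2e-05). In both genes the plates agreed within a small range and the pots lay near 1 CPM. MYB12, the root regulator that activates these flavonol genes, had 14.5, 18 and 16.8 CPM on plates and 0.107 and 0.248 CPM in pots (log2 change -6.54 ± 0.29, adjusted p = 4.9e-05). The hydroxylases F3H (-6.84) and TT7 (-6.78), the isomerase-like CHIL (-5.77) and the glucosyltransferases UGT78D2 (-4.12) and UGT78D1 (-2.29) were called lower as well. Not every gene of the list that was called lower is named here. The 5 genes called higher were DFR, LDOX, PAP1, TT8 and UF3GT, and UF3GT was the rise that separated the 8 pot from the 6 plate libraries. TT8 had 3 reads on plates and 23 in pots.

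Of the genes for the later, anthocyanin steps, DFR, LDOX and PAP1 were called higher at very low levels in Col-0. The contrast in the mutants, pho1-7 tex1-4 pots against tex1-4 plates, called these 3 genes higher too. There the log2 changes were 1.57, 3.07 and 4.53 (edgeR adjusted p = 0.089, 0.0065 and 0.023). The ranges of all 6 mutant pot libraries and the 3 tex1-4 plates nevertheless overlapped for each gene. DFR, dihydroflavonol reductase, had 0.191, 0.154 and 0.135 CPM on plates and 0.564 and 1.23 CPM in pots (log2 change 2.47 ± 0.42, adjusted p = 0.0049), and without pots replicate 2, the higher one, it changed by 1.81. LDOX, the next enzyme, had 0.0225, 0.0206 and 0.0311 CPM on plates and 0.645 and 0.672 CPM in pots (log2 change 4.65 ± 0.35, adjusted p = 2.6e-04). PAP1, a MYB activator of anthocyanin genes, had 0 reads on all plates and 0.107 and 0.395 CPM in pots, at least 23.1-fold higher with a floor of 3 reads for the plates. These 3 genes stayed at or below 1.23 CPM in every Col-0 library, so the summed level of the list, between 1659 and 1947 CPM on plates and between 16.7 and 21 CPM in pots, follows the flavonol genes. In the 6 pot libraries of the mutants TT4 had 0.0505 to 2.0 CPM, and on the 3 tex1-4 plates 613 to 682 CPM. In the same mutant pots DFR had 0.0337 to 2.59 CPM, LDOX 0.0337 to 1.24 CPM and PAP1 0 to 0.184 CPM, against 0.0482 to 0.163 CPM, 0.0096 to 0.0575 CPM and 0 to 0.0097 CPM on tex1-4 plates, so for each the lowest pot library did not exceed the highest plate.

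Some genes that light induces were called lower in pots, and the photoreceptor genes were not called. Of 13 genes tested, 6 were called lower and none higher, and all 6 separated the 8 pot from the 6 plate libraries. ELIP1, an early light-induced protein of plastids, had 19.1, 20.0 and 18.8 CPM on plates and 0.564 and 0.541 CPM in pots (log2 change -5.12 ± 0.11, adjusted p = 9.1e-06). HFR1, a transcription factor of phytochrome signalling, had 7.33, 10.2 and 7.95 CPM on plates and 0.148 and 0.132 CPM in pots (log2 change -5.91 ± 0.26, adjusted p = 4.9e-05). HYH, a bZIP factor and the close homolog of HY5, had 27.6, 34.4 and 27.2 CPM on plates and 3.32 and 3.93 CPM in pots (log2 change -3.04 ± 0.16, adjusted p = 7.7e-05). Each of the 3 genes was lower in both pots than on any plate. HY5 itself, a central activator of light-induced genes, had 33.3, 37.9 and 33.9 CPM on plates and 17.8 and 21.2 CPM in pots, a fall below the 2-fold limit (log2 change -0.85 ± 0.11, adjusted p = 0.0019). RUP1 (-2.74) and RUP2 (-2.46), repressors in ultraviolet-B signalling, and ELIP2 (-5.26) completed the called set, whereas PHYA (0.06), PHYB (-0.18) and CRY1 (-0.25) were not called.

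**Figure D2:**
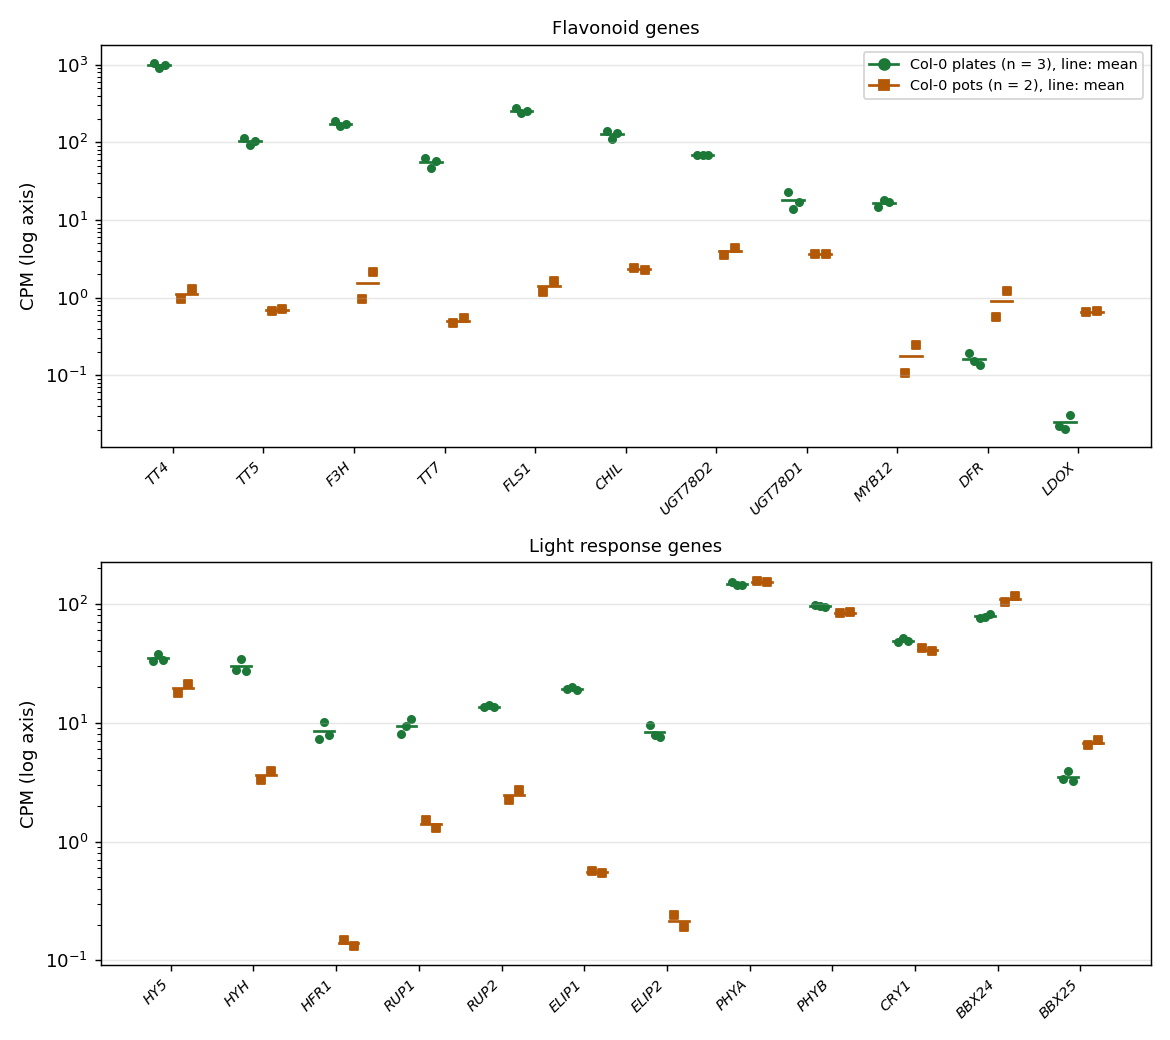
CPM (log axis) of 11 flavonoid genes (top) and 12 light response genes (bottom) in the 3 plate and 2 pot libraries of Col-0, with a line at each group's mean. TT4 lies at 907 to 1055 CPM on plates and near 1 CPM in pots, while PHYA and PHYB lie at similar levels in all 5 libraries.

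Photosynthesis genes were detected in all 5 root libraries, and 17 of 37 tested were called lower and 6 higher (median -0.64), of which 12 falls and 1 rise separated the 14 libraries. GAPB, a Calvin cycle dehydrogenase, had 14, 9.17 and 10.5 CPM on plates and 0.443 and 0.555 CPM in pots (log2 change -4.49 ± 0.27, adjusted p = 1.2e-04). NPQ4, the photoprotective PsbS protein, had 15.2, 11.6 and 13.6 CPM on plates and 0.699 and 1.3 CPM in pots (log2 change -3.76 ± 0.29, adjusted p = 2.8e-04). SBPASE, a Calvin cycle phosphatase, had 6.71, 4.87 and 4.73 CPM on plates and 0.282 and 0.541 CPM in pots (log2 change -3.73 ± 0.33, adjusted p = 4.8e-04). None of these pot values reached a plate value. The called rises were GLK1, an activator of chloroplast genes, and 5 antenna genes, LHCB1.1, LHCB1.2, LHCB1.3, LHCB2.1 and LHCB2.2. LHCB1.3 had the highest level of these, with 35.4, 27.2 and 26.8 CPM on plates and 58.6 and 102 CPM in pots (log2 change 1.43 ± 0.25, adjusted p = 0.0057). The contrast in the mutants did not call LHCB1.3 (1.21, edgeR adjusted p = 0.20). LHCB1.1 had 0.203, 0.0824 and 0.166 CPM on plates and 2.0 and 5.45 CPM in pots (log2 change 4.63 ± 0.55, adjusted p = 0.0014, 3.73 without pots replicate 2), and its values in the mutant pots ran from 0.0337 to 7.36 CPM. The LHCB1 copies are near-identical in sequence, so reads could be split between them. RBCS1A, a small subunit of Rubisco, had 27.6, 18 and 23.2 CPM on plates and 11 and 18.7 CPM in pots and was not called (log2 change -0.63 ± 0.27, adjusted p = 0.11), but without pots replicate 2 it was called at -1.06. Pots replicate 2 exceeded pots replicate 1 for all 37 genes (100%), against 52.9% of all tested genes, and the part of this library difference in the result was not tested. Without pots replicate 1 the list had 15 genes lower and 6 higher, and without replicate 2 it had 21 lower and 5 higher.

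The called clock genes split into a morning set that was higher in pots and an evening set that was lower. Of 17 tested, 7 were called in each direction, and all 14 separated the 8 pot from the 6 plate libraries. CCA1, a morning repressor (RefSeq TAIR10.1 chr2:19245591-19248915), had 22.9, 34.2 and 27 CPM on plates and 311 and 330.0 CPM in pots (log2 change 3.51 ± 0.17, adjusted p = 6.7e-05). LHY, its partner, had 52.2, 71.5 and 53.2 CPM on plates and 349.9 and 387 CPM in pots (log2 change 2.64 ± 0.16, adjusted p = 1.2e-04). LNK2, a morning coactivator, had 33.7, 45.7 and 37.6 CPM on plates and 378 and 398 CPM in pots (log2 change 3.31 ± 0.14, adjusted p = 4.4e-05). Both pots exceeded every plate several-fold in these 3 genes. ELF4, a component of the evening complex, had 49.6, 63.5 and 52.2 CPM on plates and 0.618 and 0.672 CPM in pots (log2 change -6.42 ± 0.18, adjusted p = 1.5e-05). LUX, the DNA-binding member of that complex, had 43.5, 45.2 and 44.4 CPM on plates and 4.34 and 4.31 CPM in pots (log2 change -3.36 ± 0.08, adjusted p = 9.1e-06). FKF1, a blue-light receptor in a ubiquitin ligase, had 6.37, 7.87 and 6.43 CPM on plates and 0.121 and 0.248 CPM in pots (log2 change -5.23 ± 0.30, adjusted p = 1.0e-04, -5.82 without pots replicate 2). Here every pot lay far below every plate. GI, which acts with FKF1, had 55.8, 65.6 and 57.3 CPM on plates and 13.2 and 14.8 CPM in pots (log2 change -2.09 ± 0.11, adjusted p = 7.7e-05), and PRR5, an afternoon repressor, fell by a larger step (log2 change -3.14 ± 0.17, adjusted p = 8.0e-05). The other morning genes RVE8 (1.65), RVE1 (1.98), PRR9 (1.93) and PRR7 (1.44) were called higher. TOC1, an evening repressor, had 80.8, 86.4 and 82.7 CPM on plates and 47.9 and 46.7 CPM in pots, below every plate but within 2-fold (log2 change -0.82 ± 0.07, adjusted p = 3.3e-04). In the mutant pots CCA1 had 238 to 309 CPM and ELF4 0.341 to 0.591 CPM, against 13.8 to 14.7 CPM and 55 to 64.1 CPM on tex1-4 plates. Plates replicate 2 was the highest plate for 16 of the 17 genes, morning and evening genes alike, against 41.7% of all tested genes.

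**Figure D3:**
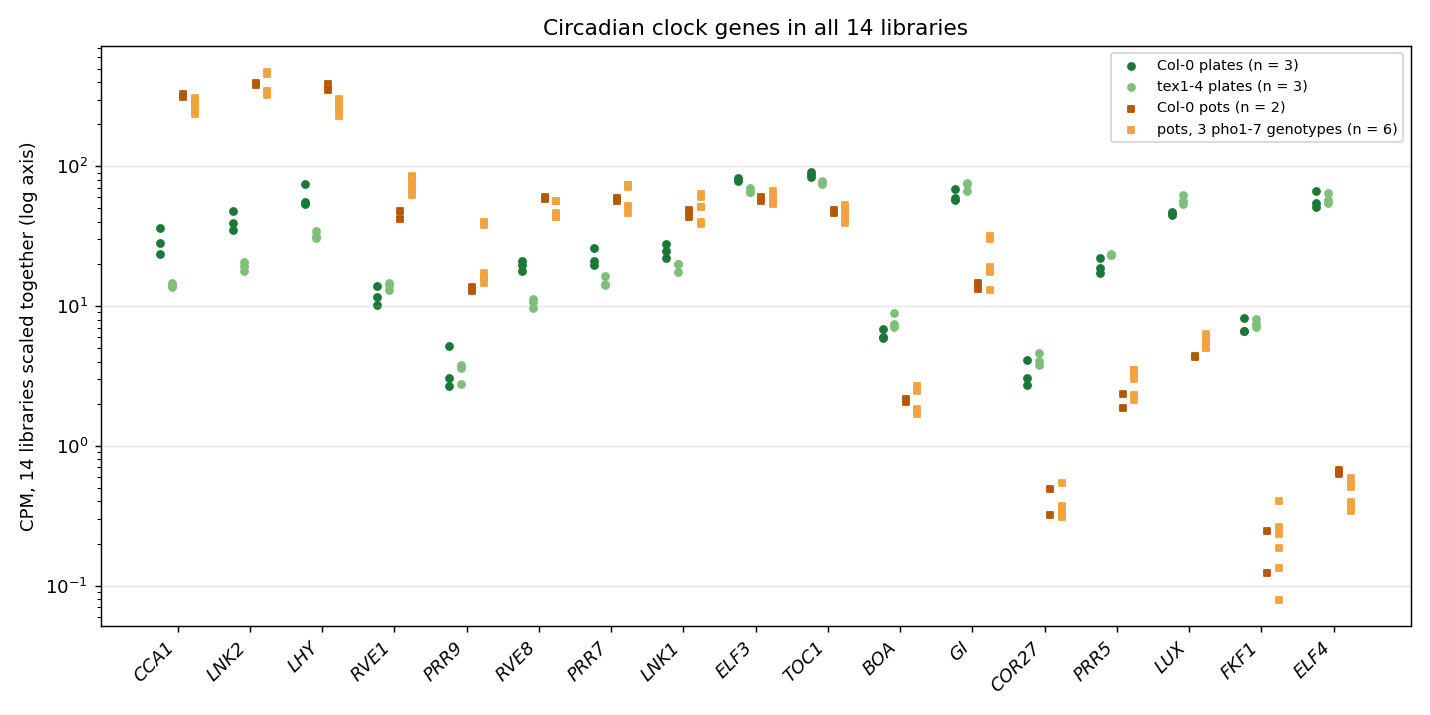
CPM (log axis) of 17 clock genes in all 14 libraries scaled together, with Col-0 in dark and mutants in light colours, circles for plates and squares for pots. From CCA1 to PRR7 the squares lie above the circles, and from BOA to ELF4 below them.

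The evening element, the 9-base motif AAAATATCT through which CCA1 and its relatives bind evening genes, was searched on both strands in the 500 bases before each gene start. It was present in 5 of the 7 clock genes called lower (71.4%), in 0 of the 7 called higher and in 1 of the 3 not called, and in 4.39% of the 22077 tested genes with such a window. A match is a description of the letters only, and the motif was picked with these results in view. The window nearest to the gene start is shown for each gene that holds one, read along the gene's strand with the motif in capitals (AGATATTTT where it lies on the opposite strand), to set the shared letters beside the changes.
LUX: tagaagatctAAAATATCTagctaactcg
COR27: gcagttgaagAAAATATCTttgatatttt
BOA: tgcgggtaaaAGATATTTTagattatcta
PRR5: gattttttctAGATATTTTcttttctcca
FKF1: tgagtaggctAGATATTTTctcggaatat
TOC1: aaatatcatgAGATATTTTctccaagatg
In RefSeq TAIR10.1 these windows are chr3:17182979-17183007 on the plus strand for LUX, chr5:17199912-17199940 on the minus strand for COR27, chr5:24003835-24003863 on the plus strand for BOA, chr5:8358715-8358743 on the minus strand for PRR5, chr1:25508443-25508471 on the plus strand for FKF1 and chr5:24674802-24674830 on the plus strand for TOC1. The first 5 belong to called genes, with changes of -3.36, -2.97, -1.52, -3.14 and -5.23, and TOC1 (-0.82) was not called.

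Most genes of the suberin pathway were called lower in pots. Of 24 tested, 18 were called lower and none higher, with a median of -1.58, and all 18 separated the 14 libraries. GPAT5, an acyltransferase that makes suberin monomers, had 37.7, 58.8 and 42.1 CPM on plates and 14.6 and 15.9 CPM in pots (log2 change -1.6 ± 0.21, adjusted p = 0.0019). ABCG6, a transporter of suberin precursors, had 112, 183 and 131 CPM on plates and 22.4 and 25.2 CPM in pots (log2 change -2.57 ± 0.23, adjusted p = 5.3e-04). MYB41, an activator of suberin genes, had 3.05, 5.44 and 4.58 CPM on plates and 0.833 and 0.731 CPM in pots (log2 change -2.48 ± 0.30, adjusted p = 0.0015). Plates replicate 2 was the highest in these 3 genes, as in 23 of the 24, against 41.7% of all tested genes, and the 2 pots were close to each other. ASFT, the feruloyl transferase of suberin, had 208, 341 and 231 CPM on plates and 98.6 and 111 CPM in pots (log2 change -1.31 ± 0.23, adjusted p = 0.0057), and FAR4, a reductase that makes fatty alcohols, changed by -1.65. KCS2, a fatty acid elongase, changed by -2.22 ± 0.20. The MYB factors MYB84 (0.88) and MYB92 (-0.08) were not called. Summed over the list, the genes took between 1549 and 2229.7 CPM on plates and between 635 and 688 CPM in pots. Without plates replicate 2 the list had 17 genes called lower.

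Among Casparian strip and endodermis genes the called changes were also falls. Of 11 tested, 4 were called lower and none higher (median -0.91). CASP5, a scaffold protein of the strip, had 5.23, 11.3 and 9.87 CPM on plates and 0.255 and 0.248 CPM in pots (log2 change -5.12 ± 0.46, adjusted p = 5.0e-04). CASP1 had 142, 241 and 189.6 CPM on plates and 91.8 and 105 CPM in pots (log2 change -0.95 ± 0.22, adjusted p = 0.016), just under the 2-fold limit. MYB36, which activates the strip genes, had 26, 35.9 and 30.8 CPM on plates and 16.3 and 16.6 CPM in pots (log2 change -0.91 ± 0.14, adjusted p = 0.0041). In all 3 genes the pots lay below the lowest plate. SCR (0.19) and SHR (-0.05), which set endodermal identity, were not called. The call of CASP2 (-1.1 ± 0.21) lay near the limit, and leaving out plates replicate 2 gave -0.91 and 1 call in the list, while leaving out pots replicate 1 gave 2 calls and leaving out plates replicate 1 gave 6, with CASP1 (-1.13) and MYB36 (-1.02) among them. Without pots replicate 2 CASP1 was called as well (-1.06).

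Cell division and meristem genes did not pass the test in either direction. None of 25 cell cycle genes and none of 8 meristem genes was called, with medians of 0.05 and 0.02 in the edgeR fit. At an unadjusted p under 0.05 and any fold, 3 cell cycle genes were higher and 2 lower, 2 meristem genes were higher and none lower, and DESeq2 called 0 in both lists. CYCB1;1, a mitotic cyclin, had 14, 10.3 and 12.7 CPM on plates and 14.7 and 12.9 CPM in pots (log2 change 0.16 ± 0.15, adjusted p = 0.41). PLT1, a regulator of the stem cell niche, had 9.09, 5.17 and 9.31 CPM on plates and 8.22 and 6.72 CPM in pots (log2 change -0.07 ± 0.27, adjusted p = 0.85). The pot values of both genes lay within the range of the plates or next to it. Plates replicate 2 was the lowest plate for 23 of the 25 cell cycle genes and 6 of the 8 meristem genes, against 9684 of all 22225 tested genes. The contrast in the mutants called 0 cell cycle genes (median 0.21), but 2 meristem genes higher and none lower (median 0.80).

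The root hair genes that were called all fell, while uncalled members of the list changed by up to 0.82 upward. Of 23 tested, 7 were called lower and none higher (median -0.56), and 5 of the 7 separated the 14 libraries. RHS12, a wall enzyme of root hairs, had 44, 60.4 and 46.7 CPM on plates and 14 and 15.3 CPM in pots (log2 change -1.78 ± 0.16, adjusted p = 5.0e-04). PIP5K3, a lipid kinase of the hair tip, had 11.7, 14.6 and 13.3 CPM on plates and 4.59 and 5.77 CPM in pots (log2 change -1.35 ± 0.15, adjusted p = 0.0012). RSL4, a basic helix-loop-helix factor that drives hair growth, changed by -1.26 ± 0.21. RHD6, which starts hair development, had 14.9, 14.4 and 17.6 CPM on plates and 13.7 and 14 CPM in pots (log2 change -0.18 ± 0.11, adjusted p = 0.24). Leaving out plates replicate 2 or pots replicate 1 left 4 calls. Genes of xylem walls gave 1 call higher and none lower among 21 (median -0.34), the call being MYB58 (1.57 ± 0.14), a lignin regulator. CESA8, a cellulose synthase of secondary walls, had 46.8, 58.1 and 54.5 CPM on plates and 51.1 and 48.4 CPM in pots (log2 change -0.10 ± 0.11, adjusted p = 0.49). Of 14 genes for lignin precursors, PAL2 and CAD4 were called lower (-1.0 ± 0.11 and -1.24 ± 0.12), and without plates replicate 2 PAL2 gave -0.91 and was not called.

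**Figure D4:**
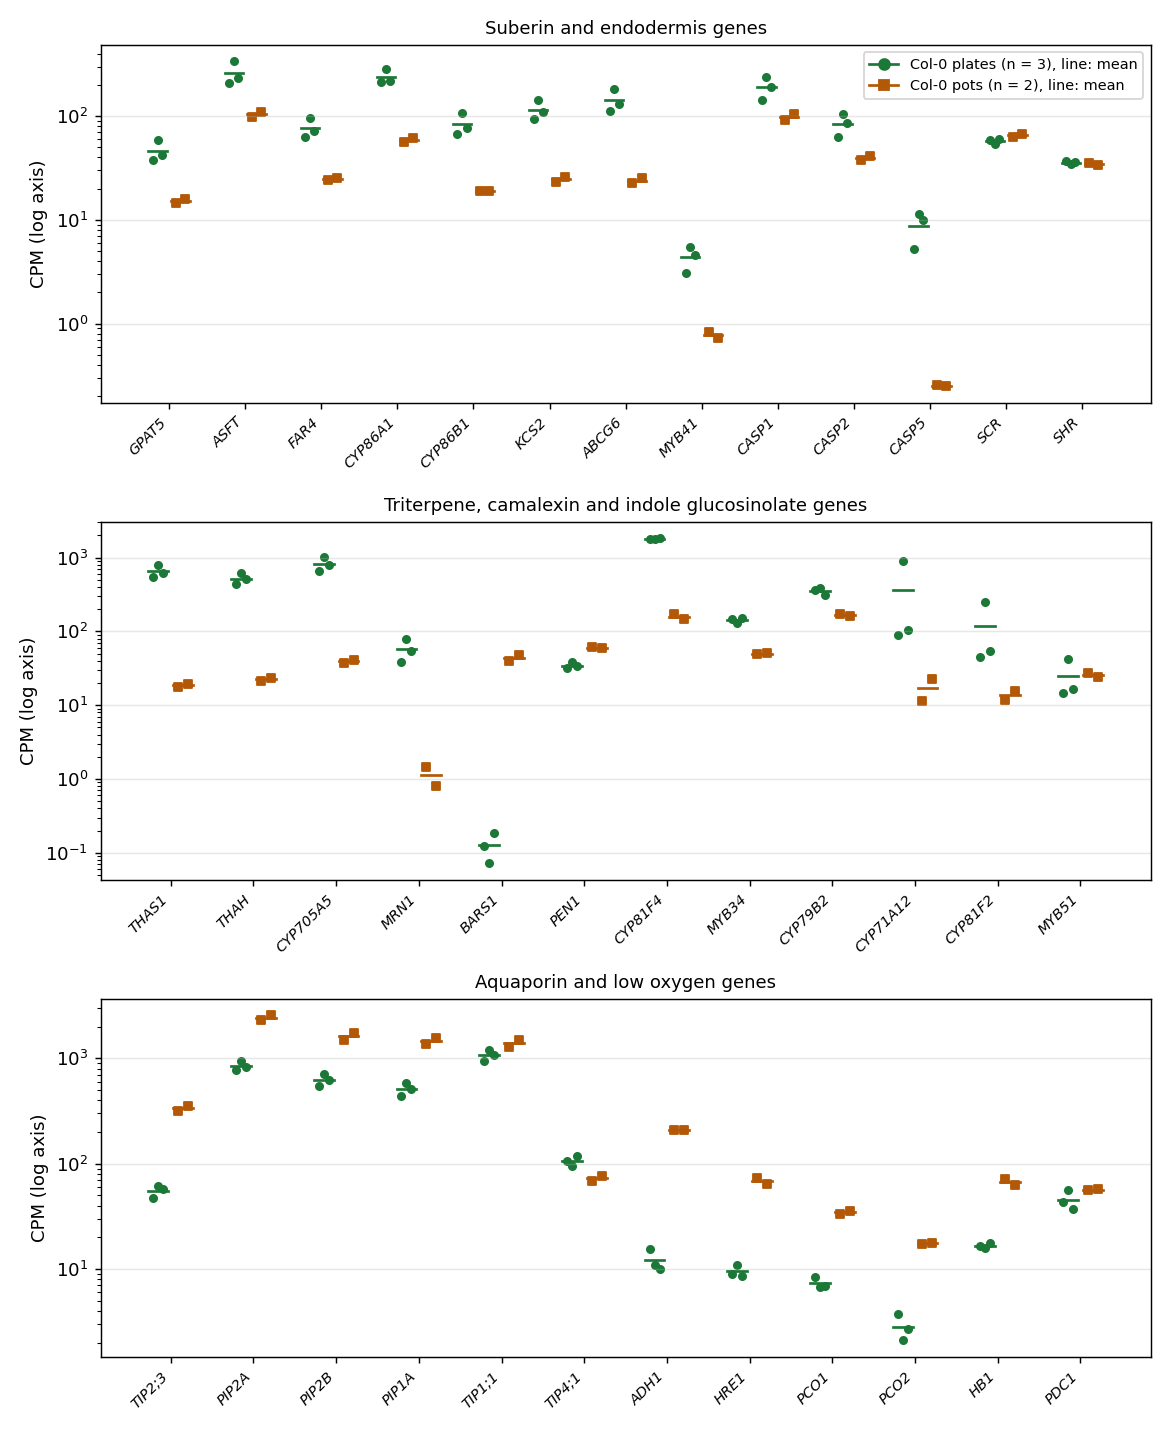
CPM (log axis) of suberin and endodermis genes (top), triterpene, camalexin and indole glucosinolate genes (middle) and aquaporin and low oxygen genes (bottom) in the 3 plate and 2 pot libraries of Col-0, with a line at each group's mean. THAS1 lies at 541 to 792 CPM on plates and 17.8 to 19.6 in pots, and 1 plate library stands high for CYP71A12 and CYP81F2.

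The thalianol gene cluster, which makes root triterpenes, was lower in pots, while a second triterpene synthase was higher. Of 7 triterpene genes tested, 5 were called lower and 1 higher (median -4.40). THAS1, thalianol synthase (RefSeq TAIR10.1 chr5:19456837-19461706), had 541, 792 and 614 CPM on plates and 17.8 and 19.6 CPM in pots (log2 change -5.12 ± 0.22, adjusted p = 4.5e-05). THAH, the hydroxylase of thalianol, had 434, 620.2 and 504 CPM on plates and 21.4 and 23.5 CPM in pots (log2 change -4.53 ± 0.20, adjusted p = 4.8e-05). MRN1, marneral synthase, had 38.1, 78.8 and 53.8 CPM on plates and 1.46 and 0.804 CPM in pots (log2 change -5.64 ± 0.46, adjusted p = 3.5e-04). In each the lowest plate was above the higher pot by more than 10-fold. BARS1, baruol synthase, had 0.124, 0.0721 and 0.187 CPM on plates and 40.2 and 48.2 CPM in pots (log2 change 8.42 ± 0.25, adjusted p = 1.8e-05). PEN1, arabidiol synthase, had 31.9, 38 and 33.5 CPM on plates and 61.1 and 59.7 CPM in pots, higher in both pots but within 2-fold (log2 change 0.81 ± 0.09, adjusted p = 0.0011). The mutants had 35.4 to 70.9 CPM of BARS1 in pots and 0.0386 to 0.0968 CPM on plates.

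Some indole glucosinolate and camalexin genes were called lower in pots, and 1 plate library moved several of the values. Of 14 tested, 7 were called lower and none higher (median -0.95), and 5 of the 7 separated the 14 libraries. CYP81F4, which hydroxylates indole glucosinolates, had 1780.3, 1788 and 1838 CPM on plates and 171 and 146 CPM in pots (log2 change -3.51 ± 0.12, adjusted p = 2.3e-05), with plates that agreed closely. MYB34, a regulator of indole glucosinolates, had 149, 131 and 149.9 CPM on plates and 49 and 50.8 CPM in pots (log2 change -1.52 ± 0.09, adjusted p = 1.1e-04). CYP71A12, a camalexin pathway enzyme, had 88.2, 901 and 103 CPM on plates and 11.4 and 22.7 CPM in pots (log2 change -4.42 ± 1.31, adjusted p = 0.036). Plates replicate 2 was the high plate here, and without it the change was -2.48 (adjusted p = 0.00029), whereas without pots replicate 1 or 2 the adjusted p was 0.18 and 0.13. CYP71A13, a near-identical copy, had 3 reads in pots and 446 on plates, a ratio of 75.2 (95% counting interval 25.6 to 366) that rests on the same library. PAD3, the last enzyme of camalexin synthesis, had 27.2, 53.4 and 21.7 CPM on plates and was below all of these in both pot libraries (log2 change -0.80 ± 0.39, adjusted p = 0.14), short of 2-fold but called without plates replicate 3 (-1.03). MYB51 had 14.8, 42.2 and 16.7 CPM on plates and 26.9 and 24.4 CPM in pots (log2 change 0.07 ± 0.46, adjusted p = 0.92), and without plates replicate 2 its change was 0.72 (adjusted p = 0.00045). Without pots replicate 1 or without pots replicate 2 the list had 4 calls.

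Defence genes of the salicylate branch included 6 called higher and none lower among 14 (median 0.38), and 3 of the 6, PR2, PR5 and MLO12, separated the 14 libraries. MLO12 had 29.7, 43.7 and 35.1 CPM on plates and 109 and 125 CPM in pots (log2 change 1.70 ± 0.17, adjusted p = 6.8e-04). The contrast in the mutants called MLO12 (1.93) and PR5 (4.88) higher too, but not PR2 (1.63, edgeR adjusted p = 0.46). PR2, a glucanase, had 0 reads on all 3 plates and 2.86 and 11.5 CPM in pots, at least 658-fold higher with a floor of 3 reads for the plates. PR5, a thaumatin-like protein, had 2 reads on plates and 625 in pots, a ratio of 618 (95% counting interval 170 to 5113). In both genes pots replicate 2 was about 4 times replicate 1, and the mutants in pots had 0.0337 to 0.461 CPM of PR2 and 0.0387 to 0.143 CPM of PR5. PR1 had at most 2 reads in any Col-0 library and was not tested, and it had 0 to 2.88 CPM in the mutant pots. WRKY70, a regulator of this branch, had 5.34, 29.5 and 6.9 CPM on plates and 10.7 and 9.53 CPM in pots (log2 change -0.46 ± 0.75, adjusted p = 0.65), and without plates replicate 2, the high library, it changed by 0.74 (adjusted p = 0.0037). In the jasmonate list, 1 of 15 was called higher and 3 lower (median 0.40), and DESeq2 called 2 lower. The fall of AOC1 was the least certain, with 0.169, 0.309 and 0.135 CPM on plates and 0.0403 and 0.0877 CPM in pots (log2 change -1.67). Without plates replicate 2 AOC1 was not called (-1.23, edgeR adjusted p = 0.10). It changed by -1.21 without pots replicate 1 and by -2.30 without pots replicate 2. VSP1, a vegetative storage protein, had 122, 88.2 and 113 CPM on plates and 10.3 and 8.72 CPM in pots (log2 change -3.5 ± 0.18, adjusted p = 7.7e-05), and ORA59, an ethylene response factor, had 2.6, 1.32 and 2.09 CPM on plates and 8.32 and 7.82 CPM in pots (log2 change 2.01 ± 0.27, adjusted p = 0.0022).

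High-affinity nitrate transporters were among the nitrogen genes called higher in pots, and a nitrate reductase was called lower. Of 29 nitrogen genes, 6 were called higher and 3 lower (median 0.22), and all 9 separated the 14 libraries. NRT2.1, the main high-affinity nitrate transporter of roots (RefSeq TAIR10.1 chr1:2524023-2526322), had 2.3, 2.35 and 2.06 CPM on plates and 84.5 and 129 CPM in pots (log2 change 5.58 ± 0.21, adjusted p = 3.1e-05). ASN1, asparagine synthetase, had 30.0, 34.5 and 16.4 CPM on plates and 174 and 154 CPM in pots (log2 change 2.6 ± 0.30, adjusted p = 0.0013). NIA2, nitrate reductase, had 776, 959 and 755 CPM on plates and 173 and 146 CPM in pots (log2 change -2.38 ± 0.15, adjusted p = 1.6e-04). The groups did not overlap in any of the 3 genes. NIA1, the second nitrate reductase, had 251, 275 and 277 CPM on plates and 333 and 245 CPM in pots, with pots on both sides of the plates (log2 change 0.11 ± 0.14, adjusted p = 0.56). NRT2.4 (3.85 ± 0.31) and NRT2.5 (5.23 ± 0.70), transporters known from nitrogen-starved roots, were called higher at levels under 2 CPM, and without plates replicate 1 NRT2.5 changed by 6.04. AMT1;1, an ammonium transporter, had 177, 286 and 183 CPM on plates and 159.9 and 201 CPM in pots (log2 change -0.25 ± 0.24, adjusted p = 0.42). NRT2.6, a relative of NRT2.1, was among the largest rises of the genome, with 2 reads on plates, both in replicate 1, and 5397 in pots, a ratio of 5335 (95% counting interval 1476 to 44065). In the mutants NRT2.1 had 22.5 to 35.9 CPM in pots and 0.489 to 1.12 CPM on plates.

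Phosphate genes moved in both directions. Of 27 tested, 8 were called higher and 3 lower (median 0.31), and 7 of the rises and 2 of the falls separated the 14 libraries. PHO1, which holds the T-DNA insertion of the study's pho1-7 mutant and is not a member of this list, had 315, 283 and 279 CPM on plates and 972 and 928 CPM in pots (log2 change 1.7 ± 0.09, adjusted p = 7.5e-05). PHT1;3, a phosphate transporter of the plasma membrane, had 0.045, 0.0618 and 0.0104 CPM on plates and 88 and 119 CPM in pots (log2 change 11.32 ± 0.30, adjusted p = 1.4e-05). PHT1;4, another member of the family, had 96.7, 143 and 103 CPM on plates and 26 and 25 CPM in pots (log2 change -2.16 ± 0.19, adjusted p = 4.8e-04). The groups were apart in all 3 genes, with PHT1;4 opposite to PHT1;3. PHT1;1, a tandem neighbour of PHT1;2 and PHT1;3, had 372, 547 and 364 CPM on plates and 330.3 and 379 CPM in pots (log2 change -0.27 ± 0.20, adjusted p = 0.31), and since these copies are alike, reads may be split between them. The sensors SPX1 (11.2, 17 and 13.5 CPM on plates and 17.9 and 16.7 CPM in pots) and SPX3 (0.349, 0.505 and 0.197 CPM on plates and 0.336 and 0.395 CPM in pots), induced by phosphate starvation, did not pass the test (0.31 and 0.06). AT4, a starvation-induced RNA that titrates miR399, had 32.6, 30.2 and 34.5 CPM on plates and 160.2 and 155 CPM in pots (log2 change 2.28 ± 0.08, adjusted p = 2.4e-05). PAP17, an acid phosphatase, had 22.5, 41 and 28.8 CPM on plates and 13.2 and 12.6 CPM in pots (log2 change -1.25 ± 0.26, adjusted p = 0.01), and without plates replicate 2 it gave -0.98 and the list 1 call lower. The binding site P1BS (GNATATNC, a palindrome) of the starvation regulator PHR1 lay in the 500 bases before 5 of the 8 genes called higher (62.5%), 1 of the 3 called lower (33.3%) and 6 of the 16 not called (37.5%), against 10.8% of all 22077 windows. The windows of the neighbouring genes PHT1;3 (chr5:17409121-17409148) and PHT1;2 (chr5:17415646-17415673), both on the plus strand of RefSeq TAIR10.1, are shown because they share the motif, in capitals, and the bases after it.
PHT1;3: aataaaatgtGGATATACccttaagatt
PHT1;2: atataaatatGGATATACccttaagatt

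Genes of iron uptake included more rises than falls in Col-0. Of 19 tested, 9 were called higher and 2 lower (median 0.80), and 3 of the rises and both falls separated the 14 libraries. FRO2, the ferric reductase of the root surface, had 22.6, 33.8 and 47.6 CPM on plates and 411 and 549.9 CPM in pots (log2 change 3.79 ± 0.32, adjusted p = 4.1e-04). IRT1, the iron transporter, had 67.7, 111 and 118 CPM on plates and 408 and 553 CPM in pots (log2 change 2.28 ± 0.26, adjusted p = 0.0013). NAS1, a nicotianamine synthase, had 204, 244 and 218 CPM on plates and 65.8 and 80.3 CPM in pots, opposite to NAS2 (log2 change -1.61 ± 0.13, adjusted p = 3.3e-04). NAS2 had 16.6, 23.5 and 13.4 CPM on plates and 177 and 214 CPM in pots (log2 change 3.45 ± 0.24, adjusted p = 2.1e-04). BHLH39, a regulator of the uptake genes, had 8.81, 18.8 and 13 CPM on plates and 17.4 and 18.2 CPM in pots (log2 change 0.39 ± 0.30, adjusted p = 0.32). The same contrast in the mutants called 4 of the list higher and 5 lower (median -0.40), and there IRT1 had 119.7 to 239 CPM in pots and 143 to 162 CPM on plates, so the list's counts there did not follow those of the wild type. Leaving out pots replicate 2 left 6 calls higher. Of 6 genes for iron storage, VTL1 (4.02, 5.4 and 4.62 CPM on plates and 42.8 and 47.3 CPM in pots), VTL2 and VIT1, all of the vacuolar iron transporter type, were called higher, at 3.27, 3.06 and 2.21, and without pots replicate 2 VIT1 was not called (adjusted p = 0.23). FER1, ferritin, had 107, 96.5 and 103 CPM on plates and 147 and 152 CPM in pots (log2 change 0.55 ± 0.07, adjusted p = 0.002).

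Of the called genes of sulfur limitation most were lower. Of 14 tested, 5 were called lower and 1 higher (median -0.64). LSU1, named for its response to low sulfur, had 17.8, 45.1 and 21.8 CPM on plates and 0.0269 and 0.102 CPM in pots (log2 change -8.77 ± 0.79, adjusted p = 5.0e-04), and it changed by -8.09 without pots replicate 1 and by -9.97 without pots replicate 2. SDI1, another marker of sulfur deficiency, had 18.7, 26.8 and 22.9 CPM on plates and 3.09 and 4.22 CPM in pots (log2 change -2.64 ± 0.22, adjusted p = 3.7e-04). SULTR2;1, a vascular sulfate transporter, had 87.7, 82.6 and 80.1 CPM on plates and 14.2 and 16.3 CPM in pots (log2 change -2.46 ± 0.09, adjusted p = 3.4e-05). All plates were above both pots for these genes. SULTR1;1, a root uptake transporter induced by low sulfur, went the other way with 8.26, 12.6 and 11.2 CPM on plates and 65.5 and 83.6 CPM in pots (log2 change 2.8 ± 0.20, adjusted p = 2.2e-04). SULTR1;2, the main uptake transporter, had 635, 1016 and 634 CPM on plates and 195 and 226 CPM in pots (log2 change -1.86 ± 0.25, adjusted p = 0.0022). Plates replicate 2 was the highest plate for 11 of the 14 genes (78.6%), against 41.7% of all tested genes, and its part in the result was not tested.

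**Figure D5:**
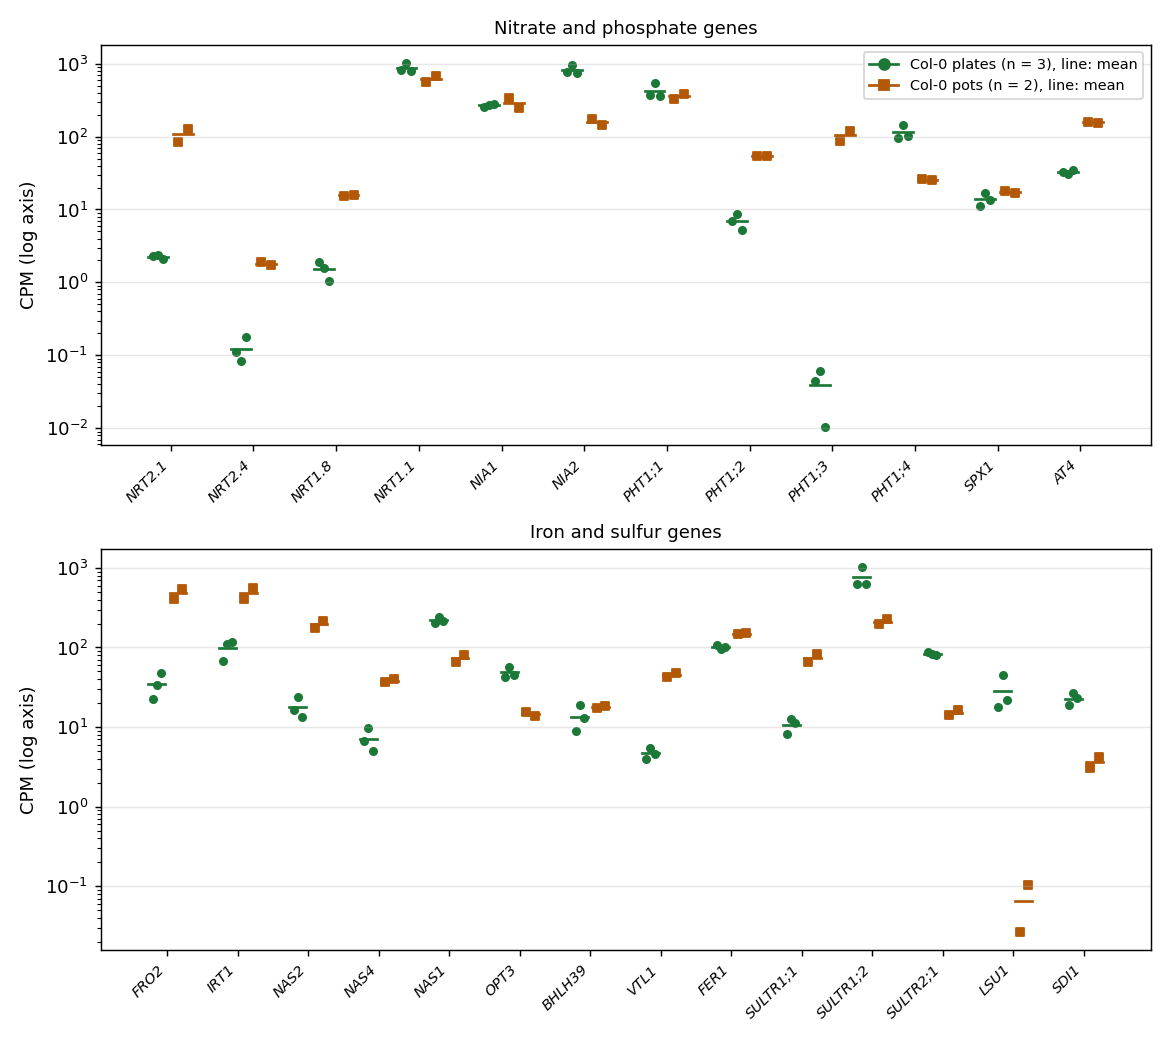
CPM (log axis) of nitrate and phosphate genes (top) and iron and sulfur genes (bottom) in the 3 plate and 2 pot libraries of Col-0, with a line at each group's mean. NRT2.1, PHT1;3, FRO2 and SULTR1;1 lie higher in pots, and NIA2, PHT1;4, NAS1 and LSU1 lower.

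Sucrose was supplied on plates only, and the genes known to answer to sugar split. Of 15 genes that low sugar raises, 4 were called higher and 2 lower (median 0.73), with 4 of the rises and 1 of the falls separating the 14 libraries, while the contrast in the mutants called 10 higher and 1 lower (median 1.27). SEN1, a gene of dark and low sugar, had 3.2, 4.66 and 2.53 CPM on plates and 17.7 and 13.7 CPM in pots (log2 change 2.18 ± 0.27, adjusted p = 0.0015). STP1, a hexose transporter, had 96.2, 103 and 104 CPM on plates and 171 and 165 CPM in pots, higher in both pots within 2-fold (log2 change 0.73 ± 0.07, adjusted p = 6.1e-04). TPS8, a trehalose phosphate synthase family member, had 40.9, 51.6 and 41.8 CPM on plates and 86.6 and 72.1 CPM in pots (log2 change 0.83 ± 0.13, adjusted p = 0.0043). Both pots were above the plates in these 3 genes. BGLU30 was called lower (6.56, 52.9 and 4.56 CPM on plates and 2.12 and 2.0 CPM in pots), but without plates replicate 2, its high library, the change was -1.41, and without either pot library the adjusted p was 0.24. Of 10 genes tested for high sugar and starch, 4 were called higher and 3 lower. SUS1, sucrose synthase, had 59.1, 54.7 and 55.5 CPM on plates and 209 and 207 CPM in pots (log2 change 1.88 ± 0.07, adjusted p = 2.8e-05). STP13, a hexose transporter, had 44.1, 62.4 and 45.7 CPM on plates and 5.37 and 6.78 CPM in pots (log2 change -3.06 ± 0.21, adjusted p = 2.0e-04). CWINV1, a cell wall invertase, changed by -1.44 ± 0.15. SWEET17 (1.06 ± 0.06) and SWEET16 (1.22 ± 0.10), sugar transporters of the vacuole, were called higher, and SUC2, the phloem loader, was not called (30.9, 33.6 and 32.5 CPM on plates and 37.3 and 31 CPM in pots).

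Of 12 genes of the low oxygen response 8 were called higher in pots and none lower (median 1.90). ADH1, alcohol dehydrogenase, had 15.7, 11 and 10.1 CPM on plates and 210.4 and 210.4 CPM in pots (log2 change 4.1 ± 0.20, adjusted p = 6.2e-05). HRE1, an ethylene response factor of hypoxia, had 9.04, 10.9 and 8.62 CPM on plates and 72.9 and 64.5 CPM in pots (log2 change 2.85 ± 0.12, adjusted p = 4.7e-05). HB1, a non-symbiotic haemoglobin, had 16.5, 15.9 and 17.6 CPM on plates and 71.2 and 62.8 CPM in pots (log2 change 2.0 ± 0.09, adjusted p = 4.6e-05). The pots were above all plates in each, and all 8 called genes separated the 14 libraries. PDC1, pyruvate decarboxylase, had 43.2, 55.9 and 37.5 CPM on plates and 56.3 and 56.9 CPM in pots, with both pots just above the highest plate (log2 change 0.31 ± 0.17, adjusted p = 0.17). SUS1 and SUS4, which belong to the sugar list, are also known to rise in low oxygen.

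Water channels called in the test were all higher in pots. Of 18 aquaporins tested, 10 were called higher and none lower (median 1.05), and all 10 separated the 14 libraries. TIP2;3, a tonoplast aquaporin, had 47.1, 62 and 57.7 CPM on plates and 316 and 356 CPM in pots (log2 change 2.6 ± 0.13, adjusted p = 7.2e-05). PIP2A, a plasma membrane aquaporin, had 779.8, 934 and 831 CPM on plates and 2287 and 2574 CPM in pots (log2 change 1.52 ± 0.11, adjusted p = 2.7e-04). PIP1A, of the other plasma membrane subfamily, had 441, 588 and 507 CPM on plates and 1373 and 1563 CPM in pots (log2 change 1.52 ± 0.14, adjusted p = 5.7e-04). Neither pot reached down to a plate. TIP1;1 (0.38), TIP4;1 (-0.55) and PIP1;4 (-0.35) were not called. Together the list took between 6563 and 7636 CPM on plates and between 13096 and 14871 CPM in pots. Of 17 genes of water deficit and abscisic acid, 8 were called lower and 1 higher (median -0.69), and 7 of the falls and the rise separated the 14 libraries. RD29A, a desiccation-induced gene, had 31.9, 37.4 and 35.2 CPM on plates and 9.58 and 11.1 CPM in pots (log2 change -1.75 ± 0.11, adjusted p = 1.6e-04). NCED3, which makes the abscisic acid precursor, had 3.71, 7.05 and 5.83 CPM on plates and 1.34 and 1.14 CPM in pots (log2 change -2.15 ± 0.31, adjusted p = 0.0029). The strictly abscisic acid dependent genes RAB18 (0.101, 0.515 and 0.394 CPM on plates and 0.228 and 0.365 CPM in pots) and RD29B (0.045, 0.391 and 0.259 CPM on plates and 0.188 and 0.818 CPM in pots) were under 1 CPM in every library and not called.

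The largest rises were genes with almost no reads on plates. AT5G26130, of the CAP superfamily that includes pathogenesis-related protein 1, had 0 reads on plates and 204 and 261 CPM in pots, at least 21754-fold higher with the floor of 3 reads. AT4G19750, a glycosyl hydrolase with a chitinase insertion domain, had 0 reads on plates and 36.1 and 42.3 CPM in pots, at least 3681-fold higher. AT5G33355, a defensin-like protein, had 0.0563, 0.0721 and 0.104 CPM on plates and 498 and 716 CPM in pots (log2 change 12.9 ± 0.28, adjusted p = 9.1e-06). All 3 were also high in the mutant pots, AT5G33355 at 108 to 425 CPM, and at most 0.0482 CPM on tex1-4 plates. The peroxidase AT3G03670, the cupin AT5G38930, the extensin-like AT4G08380 and the LURP-one-like AT1G33840 had the other largest rises, from 32.8 and 38.7 CPM for the lowest to 177 and 256 CPM for the highest in pots, and none passed 0.05 CPM on a plate. Among the largest falls beside TT4, FLS1 and LSU1 were UGT84A2, a sinapate glucosyltransferase, with 68, 68.8 and 66 CPM on plates and 0.0537 and 0.117 CPM in pots (log2 change -9.63 ± 0.19, adjusted p = 9.1e-06, and -10.26 without pots replicate 2), and its homolog UGT84A1 (-9.76 ± 0.21). The uncharacterized genes AT5G57785 (-8.75 ± 0.11) and AT3G52740 (-8.15 ± 0.44) and the lectin gene AT3G16530 (-7.55 ± 0.51) completed these falls. AT3G52740 changed by -7.24 without pots replicate 1 and by -10.55 without pots replicate 2.

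Of the genes with the most reads, some were called and others were not. HA2 (-0.83 ± 0.16), among the leading 5 on plates, and GLT1 (0.40 ± 0.13), among the leading 5 in pots, were not called. AT1G07590, also among the leading 5 on plates, was called lower (-1.02 ± 0.12). It changed by -0.95 without plates replicate 3 and by -0.91 without pots replicate 1, both within 2-fold. PYK10, the beta-glucosidase of root endoplasmic reticulum bodies, had 16942, 18209 and 17561 CPM on plates and 1627 and 1451 CPM in pots (log2 change -3.51 ± 0.14, adjusted p = 3.7e-05), the highest of all genes on plates. EXT3, an extensin of the cell wall, had 13596, 13861 and 13699.7 CPM on plates and 3649.8 and 4892 CPM in pots (log2 change -1.68 ± 0.16, adjusted p = 6.8e-04), and it was in the leading 5 of both groups. DOX1, a fatty acid dioxygenase, had 2445, 6809.7 and 2489 CPM on plates and 148 and 182 CPM in pots (log2 change -4.57 ± 0.60, adjusted p = 0.002), with plates replicate 2 high, and -3.89 without it. PRXR1, a peroxidase, was among the leading 5 in pots, with 1488, 1316 and 1427 CPM on plates and 3699 and 3699 CPM in pots (log2 change 1.39 ± 0.10, adjusted p = 2.0e-04). SAMDC, which makes decarboxylated S-adenosylmethionine for polyamines, had 1472, 1465 and 1406 CPM on plates and 3125 and 3349 CPM in pots (log2 change 1.16 ± 0.09, adjusted p = 2.9e-04), and the upstream reading frame AT3G02468 in the same transcript had nearly the same reads, so the pair is 1 signal. Of the study's other genes, TEX1 (15, 14.8 and 14.9 CPM on plates and 13 and 12.5 CPM in pots) and HPR1, listed as THO1 (28.9, 26.1 and 25.6 CPM on plates and 33.1 and 33.1 CPM in pots), differed by -0.23 and 0.30 and were not called. The internal reference genes PP2AA3 (0.10) and UBC21 (0.10) were not called, ACT2 had 925, 938 and 963 CPM on plates and 1442 and 1496 CPM in pots (log2 change 0.64 ± 0.08, adjusted p = 0.0016), and none of 9 such genes was called.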

How the data were processed

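The deposited files hold raw counts of reads per gene, which the authors made from polyA-selected, stranded TruSeq libraries with HISAT2 on TAIR10.31 and HTSeq-count, without normalization. The settings of HTSeq are not given in the sources used here. Deposited counts over 3' extensions were not used. Rows for unassigned reads were dropped. Groups and replicate numbers came from the sample labels.

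The 5 wild-type libraries were fitted with edgeR 4.0.16 (R 4.3.3) by the quasi-likelihood test after filterByExpr and TMM scaling, with Benjamini-Hochberg adjustment over all 22225 genes tested. The thresholds (adjusted p under 0.1, over 2-fold) are those the study applied to extensions. DESeq2 1.42.0 and the other alternatives are given in the closing section. The contrast in the mutants came from a fit of all 14 libraries. On simulated counts with the dispersion fixed at 0.02, the pots against plates test recovered 200 of 200 genes changed 4-fold. It gave 1 false call in a set of 22225 genes that includes the changed ones. The wider spread that plates replicate 2 brings to some genes was not part of the simulation, so its recovery does not extend to them. A ratio against a group with 0 reads used a floor of 3 reads for the group, and counting intervals (95%) cover counting error only. No list median moved when such genes were set at their bound.

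Of 513 listed genes 501 matched the RefSeq TAIR10.1 annotation by symbol and locus, which also gave names, coordinates and sequences. Named genes are the lead genes of each list, up to 3 called higher and 3 lower per list with the largest change, the 8 largest rises and falls at a mean of 20 CPM or more in the higher group, the 5 genes with the most reads per group, and PHO1, TEX1 and HPR1. Other list members were named after their values were seen. Not every gene that the rule picked is reported here. The members and lists were chosen with earlier results of these data known.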

Additional observations from a re-analysis of the deposited data

How the results depend on the processing

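Against the reported 2296 genes higher and 2333 lower, dropping the fold limit gave 6124 and 6303, and a 4-fold limit gave 1160 and 950. Leaving out each of the 5 libraries in turn gave 2016 to 2416 higher and 1983 to 2441 lower. RLE size factors, scaling on reference genes, DESeq2, other filters on low counts, all 14 samples in the fit, a length offset, an adjusted p under 0.05 and dropping organelle or overlapping genes all left both counts within 1.5 times of those reported. The fewest were 1583 higher with at least 1 CPM in 2 libraries and 1691 lower without overlapping genes. Scaling by library size only moved the median of all genes from 0.0032 to 0.10 and gave 2545 higher and 2086 lower (55.0% of calls higher, against 49.6%), and PAL2, AMT1;2 and ARR3 were among the genes that then fell short of 2-fold. No named gene changed direction while called. Over all named genes and settings, 3400 comparisons stayed on the same side of the threshold, called or not, 81 lost a call and 35 gained one. Plates and pots share only replicate numbers 1 and 2, and the labels do not pair them. A replicate block over these numbers gave 2275 higher and 2358 lower. Correlations of same-numbered deviations were 0.27 and 0.28, and pots replicate 1 with plates replicate 3 gave 0.17. With 2 pot libraries the deviations of the pots mirror each other, so these values are not independent and cannot show whether the samples were paired. With 2 pot libraries, small changes and genes under about 1 CPM are the least certain.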

Other observations

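The remaining lists held genes of cytokinin response, the cambium, the shoot epidermis and seed storage. Of 9 type-A response regulators, which cytokinin induces, 3 were called lower and none higher (median -0.59). ARR4 had 124, 147 and 125 CPM on plates and 52.1 and 61.7 CPM in pots (log2 change -1.22 ± 0.12, adjusted p = 7.1e-04), both pots below every plate. ARR5 had 36.8, 40.0 and 41.3 CPM on plates and 23.5 and 31.2 CPM in pots and was not called (log2 change -0.53 ± 0.13, adjusted p = 0.022). Without pots replicate 1 the list had 1 gene lower and 1 higher, and without plates replicate 3 it had 2 lower. Of 10 cambium genes 1 was called, LBD4, with 17.7, 14.9 and 15.2 CPM on plates and 7.01 and 7.01 CPM in pots (log2 change -1.18 ± 0.11, adjusted p = 5.3e-04), while the receptor kinase PXY was higher in both pots within 2-fold (67.5, 63.3 and 60.0 CPM on plates and 109 and 91.2 CPM in pots). Of 5 shoot epidermis genes tested, CER1, of wax alkane synthesis, was called lower (6.31, 8.11 and 7.89 CPM on plates and 0.90 and 0.614 CPM in pots), and of the seed storage genes SESA4 alone was tested, called higher at no more than 0.19 CPM in any Col-0 library and not called without pots replicate 2 (adjusted p = 0.13).

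Protein families were counted by the product name in the RefSeq annotation, for the 95 names with 20 or more tested genes, a view added after the data were seen and without a test. Cysteine/histidine-rich C1 domain proteins were higher in 57 of 128 cases (44.5%) and lower in 3, against 10.3% and 10.5% of all genes. RmlC-like cupins (11 of 24 higher, 45.8%), DUF247 transmembrane proteins (9 of 20), SAUR-like auxin-responsive proteins (15 of 40, 37.5%) and TIR-NBS-LRR disease resistance proteins (20 of 60, 33.3%) also had many rises. So did mannose-binding lectins (12 of 27 higher, 6 lower), integrase-type DNA-binding proteins (23 of 61 higher, 6 lower) and ankyrin repeat proteins (16 of 46 higher, 1 lower). The families named are a selection and not a full ranking. Dirigent-like proteins, which include the directing proteins of lignan and lignin coupling, were lower in 11 of 22 cases (50.0%) and higher in 1. UDP-glycosyltransferases were lower in 26 of 75 (34.7%) and higher in 9, and peroxidases lower in 18 of 57 (31.6%) and higher in 11. Members of a family can share reads where their sequences are alike.

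The share of genes called also differed with exon length. With genes split into 10 classes of equal size by exon length, 16.8% were called higher and 14.3% lower in the shortest class, and 6.67% and 4.36% in the longest, while the median change stayed between -0.04 and 0.08 in every class. Paired-end and single-end libraries were on opposite sides of the contrast, and their part in this was not tested.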
